A study of Oryza sativa with 18 samples.

Results

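The root transcriptome of rice seedlings was set against the shoot transcriptome under full Zn supply. Members were the libraries whose labels give a root or a shoot of seedlings grown with Zn, 3 of ZPR (Zn plus root) and 3 of ZPS (Zn plus shoot), which makes 6 of the 18 libraries of the series. The series was made to study Zn deficiency, and its other 12 libraries come from roots and shoots grown without Zn (ZMR, ZMS) or given Zn again (ZRR, ZRS). Those libraries were used here only to see whether the root-shoot differences held under other Zn supplies. All plants were Nipponbare, the japonica cultivar of the rice reference genome, with no mutation or transgene. ZPR and ZPS seedlings germinated in water for 10 days, then grew in Yoshida nutrient solution with 1.5 µM ZnSO4, and were 4 weeks old when collected, 4 h after the lights came on. The -Zn groups grew without ZnSO4 for 2 weeks, and the resupplied groups had 1.5 µM ZnSO4 again for 3 days after that. The labels give 4 weeks for these groups too. If resupplied plants were older at harvest, age and Zn supply cannot be told apart in comparisons with them. Each library is poly(A) RNA of a pool of 3 seedlings. The labels say root or shoot, and the paper writes roots and leaves in a figure legend. Which parts of the root or shoot were taken is not given. In such bulk samples a lower level of a transcript can come from fewer cells of the type that makes it or from less RNA per cell, and these cannot be told apart.

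A root takes up water and mineral nutrients, and rice roots move many of them inward through transporters placed on opposite faces of the exodermis and endodermis, cell layers sealed by Casparian strips. Rice roots also take up iron both as ferrous ions and as a complex with deoxymugineic acid, a phytosiderophore made from nicotianamine and secreted into the medium. The shoot holds the chloroplasts, for which nuclear genes encode the small subunit of Rubisco, the light-harvesting chlorophyll-binding proteins, most other small photosystem subunits and the enzymes of the Calvin cycle and photorespiration.

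Levels are FPKM (fragments counted for a transcript, divided by its length and by the mapped fragments of the library), a value per length that allows levels of different genes to be set side by side. They were compared on the log2(FPKM + 0.5) scale with limma, which understates the change of loci at low FPKM. A locus was called where the absolute log2 fold change (ZPR over ZPS, so positive values are higher in the root) was at least 1 and the adjusted p (limma, Benjamini-Hochberg over all tested loci) at most 0.05. Where levels are given as 3 values against 3 values, they are FPKM in ZPR 1 to 3 and then in ZPS 1 to 3, and a lone signed number in brackets after a gene is its log2 fold change. The depth was about 6.0 to 6.98 reads per base for each FPKM in the ZPR libraries and 6.74 to 7.38 in ZPS, and 27070 to 27494 and 26975 to 27083 loci were above 0. Replicates correlated at Pearson's r of 0.933 to 0.960 in ZPR and 0.936 to 0.965 in ZPS across loci, and ZPR with ZPS libraries at 0.732 to 0.788. Replicate 1 of each tissue had the largest share of FPKM in intronic or intergenic transcripts, 3.05% in ZPR and 5.14% in ZPS. A total of 3222 values in 1832 loci were exactly 0 beside a library of the same group above 1 FPKM, in 49.2% of the loci of single-exon transcripts with a mean above 0.5 FPKM and in 1.99% of those with 2 or more exons. A 0 of this kind may stand for an estimate that failed, and no fold change is given against a group with 3 zeros. The loci lie on the 12 nuclear chromosomes, and genes of the plastid and mitochondrial genomes were not analysed here.

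Of 34716 loci, 20969 reached 0.5 FPKM in 3 or more of the 6 libraries and were tested. A locus that reached it in 1 tissue only could be called for that tissue only. A total of 5007 were called higher in the root (23.9%) and 3178 higher in the shoot (15.2%). Shoot calls were fewer and had the larger median: the absolute log2 fold change was 1.65 for root calls and 2.14 for shoot calls, and it was at least 3 for 777 root calls (15.5%) and 916 shoot calls (28.8%). At the far end the order was the other way round, with 26 root calls and 11 shoot calls at 7 or more. ZPR and ZPS libraries did not overlap for 4993 of the root calls and 3172 of the shoot calls, and for 65.3% of all tested loci. The median log2 fold change over all tested loci was 0.42 rather than 0, so the counts depend on how the libraries are scaled. With median-ratio scaling, upper-quartile scaling and quantile normalization the median was 0.03, 0.17 and 0.16 (shifts of 0.38, 0.25 and 0.26), and the root calls made up 45.3%, 50.6% and 49.5% of all calls instead of 61.2%. Called under all 4 scalings were 3247 of the root calls (15.5% of tested loci) and 3177 of the shoot calls (15.2%). These smaller sets are given below as "under all 4 scalings".

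**Figure D1:**
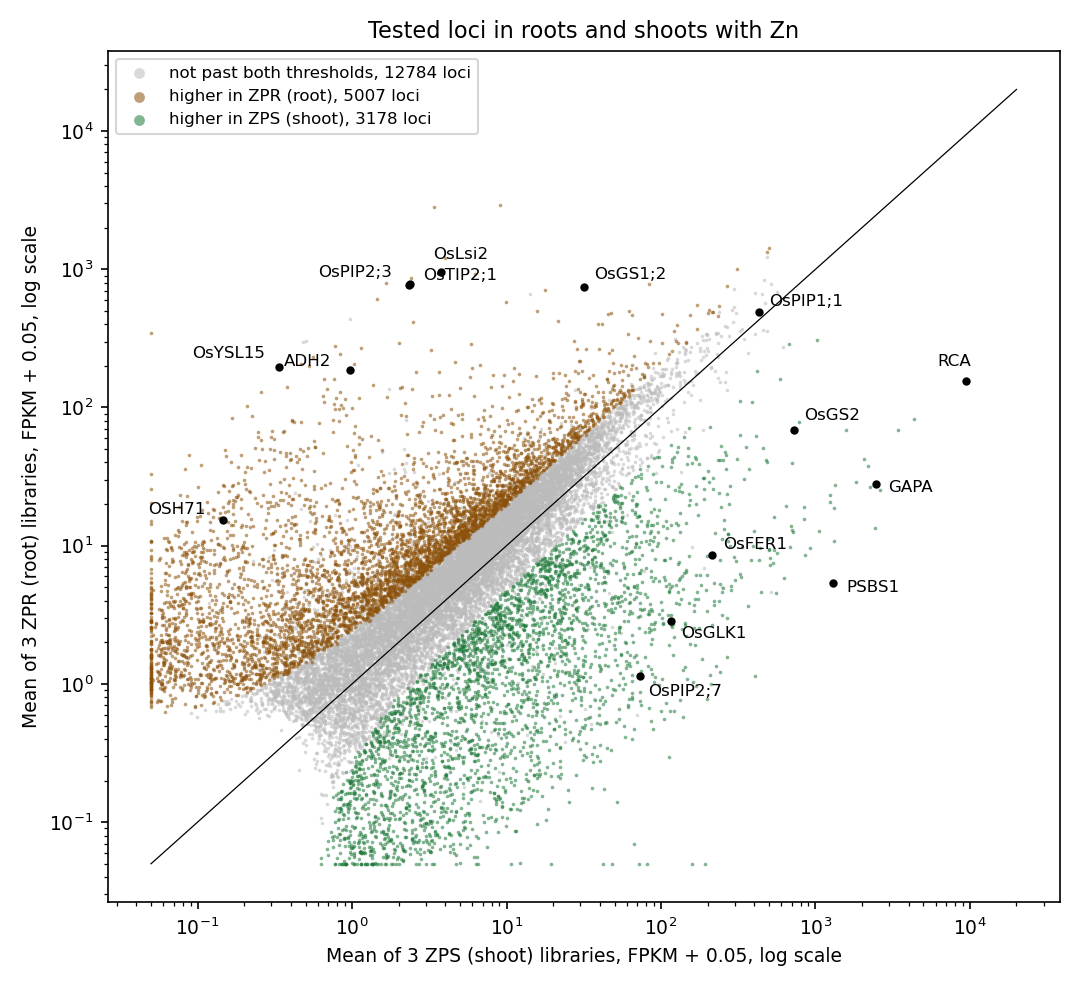
Mean FPKM of the 3 ZPS libraries (horizontal, log scale) against the mean of the 3 ZPR libraries (vertical, log scale) for each tested locus, with 0.05 added so that 0 can be drawn and a line where both are equal. The 5007 loci higher in the root (brown) and the 3178 higher in the shoot (green) lie on either side of the loci that did not pass both thresholds (grey), and loci named in the text are labelled.

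The tissues matched their labels. Of 15 tested loci that mark photosynthetic cells (genes of the Rubisco small subunit, Rubisco activase and light-harvesting proteins), 14 were called higher in the shoot and 0 in the root, beside 15.2% and 23.9% of all tested loci, and their median log2 fold change was -5.51 beside 0.42. Summed over the marker loci, the share of all FPKM was 0.164%, 0.194% and 0.179% in ZPR 1 to 3 and 9.44%, 6.80% and 6.40% in ZPS 1 to 3. No root library was near a shoot library. Of 8 loci that mark root cells, 4 could be tested and 4 were called higher in the root, with shares of 0.832%, 0.588% and 0.940% in ZPR and 0.00401%, 0.00369% and 0.00332% in ZPS. The other root markers were low or listed at 0. OsRCc3, a root-specific single-exon gene, was at 0, 14.9 and 0 FPKM in ZPR 1 to 3, the quiescent-centre homeobox gene QHB at 0.376, 0.491 and 0.274, the root-hair expansin gene OsEXPA17 at 0.248, 0.232 and 0.0175, and OsNRT2.1, a high-affinity nitrate transporter gene of 1 exon, was listed at 0 in all 6 libraries.

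The most abundant transcripts of the root were not those of the shoot. A few loci held a larger share of the total in the shoot, where the 10 highest loci held 9.45% to 12.9% of all FPKM, than in the root, where they held 4.24% to 5.90%. In the root the highest means were of metallothionein genes, small cysteine-rich metal-binding proteins. Os12g0568500, annotated as type 1, was at 2599, 2355 and 3562 FPKM in ZPR 1 to 3 and 3.05, 2.09 and 4.93 in ZPS 1 to 3 (log2 fold change 9.57, SE 0.31, adjusted p = 6.89e-06). Os12g0571100, also a metallothionein-like gene, was at 1588, 2496 and 4652 FPKM in ZPR 1 to 3 and 16.0, 3.99 and 7.24 in ZPS 1 to 3 (log2 fold change 8.31). All ZPR libraries lay above 1000 FPKM for both genes and all ZPS libraries under 20, with ZPR 3 the highest for both. Next in the root came the alpha-tubulin gene Os11g0247300 at 1417 ± 258 FPKM (mean ± SD, n = 3, as below). It was followed by the S-adenosylmethionine synthetase gene Os05g0135700 at 1331 ± 477, the aquaporin gene OsPIP1;2 at 1222 ± 765, the nectarin-like germin-family gene Os01g0284500 at 1207 ± 310.0 and the silicon transporter genes. Of these, the tubulin and synthetase genes were also at 502 ± 99.5 and 483 ± 140.4 FPKM in the shoot, while Os01g0284500 was at 3.95 ± 4.91. The synthetase call was lost under another scaling and without ZPR 3 (adjusted p = 0.0617) or ZPS 3 (0.0692). OsPIP1;2 was not called, and its libraries overlapped, at 1686, 1641 and 339 FPKM in ZPR 1 to 3 and 529, 130.0 and 801 in ZPS 1 to 3.

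In the shoot the highest locus was RCA, the gene of Rubisco activase (chromosome 11, from 28932977 to 28936076 of IRGSP-1.0), at 116, 174 and 178 FPKM in ZPR 1 to 3 and 10281, 9162 and 8983 in ZPS 1 to 3 (log2 fold change -5.94, SE 0.34, adjusted p = 2.73e-05). It was above 100 FPKM in each root library too. The chloroplast fructose-bisphosphate aldolase gene Os11g0171300 was at 4446, 4245 and 4282 in ZPS 1 to 3 and at 82.8 ± 35.6 FPKM in the root. LHCB5 was at 5216, 2608 and 2491 in ZPS 1 to 3 and at 68.8 ± 37.2 in the root. These were followed by the photosystem II 10 kDa protein gene Os08g0200300, at 21.4, 34.2 and 20.7 against 3317, 2405 and 2139 FPKM. Photosynthesis supplied nearly all of the top of the shoot list, the exception among the 10 highest being the metallothionein type 3 gene Os01g0200700. That gene was at 4535, 2437 and 362 FPKM in ZPS 1 to 3, a wide spread, and at 4.04, 28.9 and 7.44 in ZPR 1 to 3 (log2 fold change -7.28, adjusted p = 0.00163).

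Genes of light harvesting were among those with the largest gaps in favour of the shoot. The antenna proteins of photosystem II and photosystem I (LHCB and LHCA) bind chlorophyll and pass light energy to the reaction centres. LHCA1 was at 43.3, 45.0 and 38.0 FPKM in ZPR 1 to 3 and 2317, 1905 and 1932 in ZPS 1 to 3 (log2 fold change -5.59, SE 0.20, adjusted p = 8.29e-06). LHCA3 was at 18.042, 34.5 and 33.7 against 1674, 2291 and 1513 FPKM (-5.999). LHCB4 was at 34.5, 21.1 and 57.5 against 3635, 1479 and 1400.2 FPKM (-5.80). None of these overlapped between the tissues, and for LHCB4 and LHCB5 ZPS 1 was above the other shoot libraries. LHCB3 (-5.23), LHCA2 (-4.10) and LHCA4 (-5.02) had negative log2 fold changes of the same order, where the LHCA2 and LHCA4 loci each carry a second gene name. LHCB6 was at 38.0, 2.40 and 52.7 against 267, 152 and 149.7 FPKM (-3.34, adjusted p = 0.0362), and its call was lost without any single shoot library (adjusted p 0.102, 0.0732 and 0.0713). Among the 12 tested loci that the deposited table assigns to the KEGG pathway of antenna proteins, 11 were called higher in the shoot and 0 in the root, with a median log2 fold change of -5.12.

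Some light-harvesting genes could not be read from their own locus. LHCB1.2 and LHCB1.3 matched only assembled loci that the deposited class code places on the opposite strand of the annotated gene, and the strand used in counting is not given in the sources used here, so reads from a gene and from an antisense transcript cannot be told apart. Those loci are among the 14 marker calls above. The one at LHCB1.2 was at 16.9, 4.26 and 6.53 against 825, 398 and 288 FPKM, and the one at LHCB1.3 at 6.59, 3.50 and 8.61 against 551, 223 and 199.98 FPKM. LHCB1.1 was listed at 0 in all 3 ZPS libraries, while the opposite-strand locus over it, MSTRG.23986, was at 2152, 1022 and 565 there and at 28.7, 17.5 and 23.3 in ZPR. LHCB2 behaved likewise and was the 1 tested green marker that was not called. Its own locus was at 10.2, 0.223 and 11.0 FPKM in ZPR 1 to 3 and 0.0251, 12.4 and 8.64 in ZPS 1 to 3 (log2 fold change 0.17, which turned to -0.09 with median-ratio scaling), and the opposite-strand locus MSTRG.10077 was at 0.0510, 0 and 0.00765 against 162, 35.3 and 3.37 FPKM.

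Subunits of the photosystems and of electron transport followed the antenna genes. All 14 tested loci of this list were called higher in the shoot, with a median log2 fold change of -5.51, and they summed to 0.0545% of FPKM in ZPR and 2.92% in ZPS. PSBS1, the photosystem II protein needed for the dissipation of excess light, had the lowest log2 fold change of any listed locus, at 3.19, 5.73 and 6.92 FPKM in ZPR 1 to 3 and 1615, 725 and 1578 in ZPS 1 to 3 (log2 fold change -7.79, SE 0.40, adjusted p = 2.01e-05). Among proteins of the oxygen-evolving complex, PSBP was at 1.94, 2.66 and 7.62 against 189, 173 and 159.6 FPKM and PSBQ at 12.1, 6.95 and 10.2 against 1137, 561 and 353 FPKM. PSBO, also of that complex, was uneven, at 9.97, 64.1 and 5.49 FPKM in ZPR 1 to 3 and 79.1, 3382 and 3290.1 in ZPS 1 to 3 (-5.91, adjusted p = 0.0212). Its ZPS 1 value was far below the other shoot libraries, and the call was lost without ZPR 1, ZPR 3, ZPS 2 or ZPS 3 (adjusted p from 0.0622 to 0.0711). Among photosystem I subunits, PSAL was at 9.32, 10.3 and 12.9 FPKM in ZPR 1 to 3 and 1594, 1299 and 1062 in ZPS 1 to 3 (log2 fold change -6.85, SE 0.22, adjusted p = 6.72e-06). PSAF had a log2 fold change of -5.03, PSAH of -6.54, PSAN of -5.56 and PSAO of -5.57. PSAD was listed at 0 in all 3 root libraries and at 110.1, 13.3 and 2.65 in ZPS. PSAK, on a locus that spans 42 exons and carries a second gene name, differed least (-1.74). The plastocyanin gene PETE was read only from an opposite-strand locus, and its call was lost without any single root library (adjusted p from 0.0572 to 0.0671). The ferredoxin gene FD1 overlapped between the tissues, at 5.27, 0 and 0.00836 against 32.2, 3.90 and 56.0 FPKM (-4.15), and lost its call without ZPR 2, ZPR 3, ZPS 1 or ZPS 3 (adjusted p from 0.0908 to 0.0982).

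Enzymes that fix carbon were also shoot genes, and a pair of photorespiration genes differed least. All 10 tested loci of the Calvin cycle and photorespiration list were called higher in the shoot (median log2 fold change -5.75). The Rubisco small subunit gene RBCS2 was at 50.7, 138 and 17.015 FPKM in ZPR 1 to 3 and 2050.2, 1452 and 1239.6 in ZPS 1 to 3 (log2 fold change -4.95, SE 0.72, adjusted p = 0.0015). The merged locus of RBCS4 and RBCS5 was at 11.6, 5.47 and 7.42 against 557, 523 and 450.2 FPKM. RBCS3, which like that locus overlaps a locus annotated on the other strand, had a smaller log2 fold change of -3.20. Glyceraldehyde-3-phosphate dehydrogenase subunit genes GAPA (-6.44) and GAPB (-5.91), phosphoribulokinase (PRK, -5.75) and sedoheptulose-1,7-bisphosphatase (SBPASE, -5.78) lay close together on the log2 scale. In photorespiration, glycolate oxidase GLO1 was at 6.15, 9.22 and 8.12 FPKM in ZPR 1 to 3 and 537, 384 and 370.1 in ZPS 1 to 3 (log2 fold change -5.69, SE 0.22, adjusted p = 9.46e-06). The glycine cleavage H protein GDCH had a log2 fold change of -6.54 and hydroxypyruvate reductase HPR1 of -5.75. The glycine cleavage P protein GDCP was at 153, 176 and 152 FPKM in ZPR 1 to 3 and 686, 529 and 556 in ZPS 1 to 3 (-1.87). Serine hydroxymethyltransferase SHM1 was at 247, 359 and 321 against 1025, 1022 and 1018 FPKM (-1.74). Both were above 100 FPKM in every root library, unlike the other photorespiration genes. OsGLK1 and OsGLK2, transcription factor genes that activate chloroplast development, were low in the root. OsGLK1 was at 2.16, 3.32 and 2.91 against 128, 114 and 107 FPKM (-5.16) and OsGLK2 at 0.114, 0.140 and 0.257 against 23.7, 35.7 and 24.9 FPKM (-5.40). Of 108 tested loci in the KEGG pathway of porphyrin and chlorophyll, 43 were called higher in the shoot and 28 in the root, and of 61 in carotenoid synthesis 30 and 14.

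Nitrogen genes divided between the tissues by isoform. Of 10 tested, 6 were called higher in the root and 2 in the shoot (4 and 2 under all 4 scalings). Glutamine synthetase fixes ammonium into glutamine. The cytosolic OsGS1;2 (chromosome 3, from 6457910 to 6462615) had 698, 730.2 and 801 FPKM in ZPR 1 to 3 and 30.7, 36.0 and 27.7 in ZPS 1 to 3 (log2 fold change 4.55, SE 0.18, adjusted p = 9.46e-06). The plastid OsGS2 (chromosome 4, from 33624352 to 33631653) had 67.1, 66.9 and 72.1 FPKM in ZPR 1 to 3 and 1003, 632 and 533 in ZPS 1 to 3 (log2 fold change -3.33, SE 0.27, adjusted p = 0.000111). For OsGS1;2 every root library was above 600 FPKM and every shoot library under 40, and for OsGS2 every shoot library was above 500 and every root library under 80. The third isoform, OsGS1;1, was high in both, at 380.1, 545 and 548 FPKM in ZPR 1 to 3 and 172, 236 and 234 in ZPS 1 to 3 (log2 fold change 1.19, adjusted p = 0.00825), a call lost under another scaling. Ferredoxin-dependent glutamate synthase OsFd-GOGAT was a shoot gene, at 34.3, 40.7 and 32.6 against 488, 307 and 326 FPKM (log2 fold change -3.34, SE 0.23, adjusted p = 5.44e-05). Asparagine synthetase OsAS1 was a root gene, at 124, 157 and 141 against 6.51, 11.4 and 5.68 FPKM (log2 fold change 4.13, SE 0.27, adjusted p = 4.26e-05). Nitrate reductase OsNIA1 was at 37.9, 40.3 and 45.2 against 55.6, 33.9 and 36.5 FPKM (log2 fold change within 0.01 of 0, adjusted p = 0.999), while OsNIA2 was higher in the root (1.94). Nitrite reductase OsNIR, on a merged locus, was called higher in the root (1.12) but not under another scaling, nor without ZPS 1 (log2 fold change 0.98). OsNAR2.1, the partner protein that NRT2 nitrate transporters need, was at 781, 20.2 and 1036 FPKM in ZPR 1 to 3 and 1.13, 2.60 and 0.448 in ZPS 1 to 3 (log2 fold change 7.25, SE 1.49, adjusted p = 0.00653). It was far lower in ZPR 2 than in the other root libraries, yet above every shoot library in all 3. The ammonium transporter genes OsAMT1;1, OsAMT1;2 and OsAMT1;3 and the nitrate transporter gene OsNRT2.3 were listed at 0 in 3 to 5 of the 6 libraries and could not be tested. Among 54 tested loci described as nitrate or peptide transporters, 21 were higher in the root and 11 in the shoot, with Os10g0554200, annotated as a nitrate transporter, at 93.1, 57.8 and 55.6 FPKM in ZPR 1 to 3 and 3.68, 4.07 and 2.38 in ZPS 1 to 3 (4.15).

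Transporters of silicon, phosphate, potassium and sodium were root genes with few exceptions. Of 11 tested, 8 were called higher in the root and 1 in the shoot, beside 23.9% and 15.2% of all tested loci. The counts were 7 and 2 with each of the 3 other scalings, and 7 and 1 under all 4. OsLsi1 (chromosome 2, from 31266257 to 31269993) brings silicic acid into exodermal and endodermal cells and was at 913, 881 and 961 FPKM in ZPR 1 to 3 and 6.83, 5.42 and 6.39 in ZPS 1 to 3 (log2 fold change 7.10, SE 0.15, adjusted p = 5.52e-06). OsLsi2 (chromosome 3, from 430493 to 432933), which exports it on the inner face of the same cells, was at 905.94, 961 and 1020.2 FPKM in ZPR 1 to 3 and 4.25, 3.50 and 3.40 in ZPS 1 to 3 (log2 fold change 7.84, SE 0.15, adjusted p = 5.52e-06). The pair stood at nearly equal levels in each root library and were over 100 times lower in each shoot library. OsLsi6, which takes silicon out of the xylem in leaves, was at 26.4, 27.4 and 25.8 FPKM in ZPR 1 to 3 and 37.3, 56.9 and 50.2 in ZPS 1 to 3. It was higher in each shoot library but short of the fold threshold with FPKM as deposited (log2 fold change -0.83, adjusted p = 0.00877). For phosphate, OsPHO1;2, which loads it into the xylem, was at 181, 194 and 153 FPKM in ZPR 1 to 3 and 8.11, 15.5 and 12.2 in ZPS 1 to 3 (log2 fold change 3.87, SE 0.25, adjusted p = 4.31e-05). The transporter OsPT2 had a log2 fold change of 5.52. OsPT4 overlapped between the tissues, and OsPT6 and OsPT8 were too low to test. For potassium, the high-affinity uptake transporter OsHAK1 was at 109, 135 and 122 FPKM in ZPR 1 to 3 and 3.43, 3.29 and 2.97 in ZPS 1 to 3 (log2 fold change 5.03, SE 0.14, adjusted p = 5.84e-06). The channel OsAKT1 was at 73.8, 102 and 87.2 against 1.80, 3.95 and 3.64 FPKM (4.65). OsHAK5 was the shoot call of this list with FPKM as deposited. Its level was low, with 0.163, 0.198 and 0.168 FPKM in ZPR 1 to 3 and 1.38, 2.72 and 2.1039 in ZPS 1 to 3 (log2 fold change -1.89, SE 0.23, adjusted p = 0.000732). OsHKT1;5, which takes sodium back out of the xylem sap, was at 20.0, 15.3 and 12.1 FPKM in ZPR 1 to 3 and 0.401, 0.975 and 0.586 in ZPS 1 to 3 (3.82). The call of OsHKT2;1 (1.13) was lost under other scalings and without ZPR 1 (log2 fold change 0.94). Apart from OsHAK5 and OsLsi6, each member named with its values was above every shoot library in every root library.

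**Figure D2:**
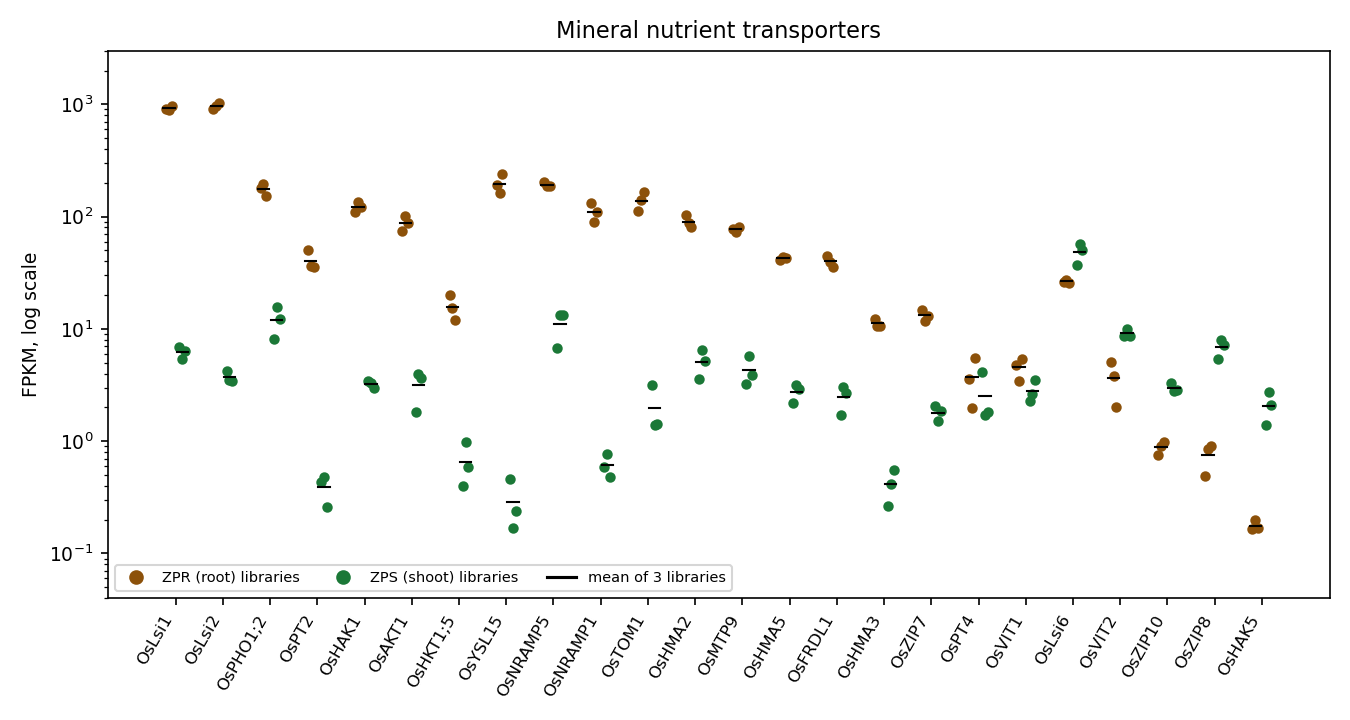
FPKM of 24 mineral transporter loci (vertical, log scale) in each ZPR library (brown) and each ZPS library (green), with bars at the mean of 3. OsLsi1 and OsLsi2 are near 1000 FPKM in every root library and under 7 in every shoot library, OsPT4 overlaps between the tissues, and OsLsi6, OsVIT2, OsZIP10, OsZIP8 and OsHAK5 are higher in every shoot library.

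Metal transporters were higher in the root in 15 of 22 tested loci and in the shoot in 3 (14 and 3 under all 4 scalings), with a median log2 fold change of 2.41. The most abundant was OsNRAMP5 (chromosome 7, from 8871422 to 8879127), the main uptake transporter of manganese and cadmium, at 204, 187 and 187 FPKM in ZPR 1 to 3 and 6.74, 13.2 and 13.3 in ZPS 1 to 3 (log2 fold change 4.12, SE 0.27, adjusted p = 4.74e-05). OsYSL15 (chromosome 2, from 26200002 to 26204945), which takes up iron with deoxymugineic acid, was at 189, 163 and 238 FPKM in ZPR 1 to 3 and 0.457, 0.170 and 0.239 in ZPS 1 to 3 (log2 fold change 7.97, SE 0.21, adjusted p = 5.84e-06), the largest log2 fold change of the list. OsNRAMP1 was at 132, 88.7 and 109 FPKM in ZPR 1 to 3 and 0.594, 0.765 and 0.476 in ZPS 1 to 3 (log2 fold change 6.62, SE 0.20, adjusted p = 6.35e-06). All 3 were above 80 FPKM in every root library. OsTOM1, which secretes deoxymugineic acid, was at 113, 139 and 165 FPKM in ZPR 1 to 3 and 3.17, 1.38 and 1.42 in ZPS 1 to 3 (log2 fold change 5.86, SE 0.30, adjusted p = 1.94e-05). OsFRDL1, which releases citrate into the xylem for iron transport, was at 45.0, 39.7 and 35.5 against 1.71, 3.03 and 2.67 FPKM (3.79). The ferrous iron transporter OsIRT1 was uneven, at 2.91, 132 and 110.1 FPKM in ZPR 1 to 3 and 1.22, 0.472 and 0.407 in ZPS 1 to 3, with ZPR 1 close to the shoot libraries (log2 fold change 5.0, adjusted p = 0.0208). Its call was lost without ZPR 2, ZPR 3, ZPS 2 or ZPS 3 (adjusted p from 0.0569 to 0.0685). OsIRT2 was low in the root and at or near 0 in the shoot, with 1.58, 1.78 and 2.46 FPKM in ZPR 1 to 3 and 0, 0.0278 and 0 in ZPS 1 to 3. Among the heavy-metal ATPases, OsHMA2, which moves zinc towards the shoot, was at 102, 88.3 and 80.5 FPKM in ZPR 1 to 3 and 3.61, 6.51 and 5.21 in ZPS 1 to 3 (log2 fold change 4.05, SE 0.22, adjusted p = 2.54e-05). OsHMA3, which stores cadmium in root vacuoles, had a log2 fold change of 3.69, and the copper transporters OsHMA5 and OsHMA4 of 3.74 and 1.61. The manganese exporter OsMTP9 was at 76.8, 73.2 and 81.2 against 3.26, 5.73 and 3.91 FPKM (4.05).

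Zinc transporters of the ZIP family were low under this supply and did not all favour the root. OsZIP7 was at 14.8, 11.6 and 13.1 FPKM in ZPR 1 to 3 and 2.04, 1.50 and 1.85 in ZPS 1 to 3 (log2 fold change 2.57, SE 0.18, adjusted p = 5.58e-05). The merged locus of OsZIP5 and OsZIP9 (chromosome 5, from 23201237 to 23219318), which carry zinc into root cells, was at 1.64, 1.61 and 1.1965 FPKM in ZPR 1 to 3 and 0.328, 0.111 and 0.326 in ZPS 1 to 3 (log2 fold change 1.40, SE 0.21, adjusted p = 0.00159). The gap at that locus was clear although no library reached 2 FPKM. On the shoot side OsZIP8 was at 0.487, 0.855 and 0.909 against 5.41, 7.97 and 7.14 FPKM (-2.56). OsZIP10 was at 0.749, 0.904 and 0.984 against 3.26, 2.81 and 2.84 FPKM (-1.33). The vacuolar transporter OsVIT2 was also called higher in the shoot (-1.28), though without ZPR 3 its log2 fold change was -0.96, short of the threshold. OsZIP1 (1.304, adjusted p = 0.201), OsZIP4 (0.64, 0.0361), OsZIP6 (0.64, 0.323) and OsVIT1 (0.61, 0.0629) did not pass both thresholds, OsZIP2 (1.02) passed with FPKM as deposited but under none of the other scalings, and not without ZPR 2, ZPR 3, ZPS 1 or ZPS 2 (adjusted p from 0.0759 to 0.0961), and OsZIP3 and OsYSL2 were too low to test.

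Genes that make the iron chelators were root genes, and genes of the iron store were shoot genes. OsNAAT1 (chromosome 2, from 11997254 to 12002625), the aminotransferase that commits nicotianamine to deoxymugineic acid, was at 297, 238 and 326 FPKM in ZPR 1 to 3 and 5.47, 4.74 and 7.22 in ZPS 1 to 3 (log2 fold change 5.52, SE 0.20, adjusted p = 8.48e-06). OsDMAS1, which completes the synthesis, was at 78.9, 127 and 160.4 FPKM in ZPR 1 to 3 and 2.21, 4.72 and 5.67 in ZPS 1 to 3 (log2 fold change 4.73, SE 0.39, adjusted p = 0.000115). OsIRO2, a bHLH activator of these genes, was at 64.5, 65.6 and 107 against 0.334, 0.531 and 0.389 FPKM (6.40). OsIRO3, a related repressor, was at 16.0, 24.0 and 28.2 against 1.63, 2.31 and 1.72 FPKM (3.25). Every root library was well above every shoot library for all 4. Nicotianamine synthase genes have a single exon and were unevenly listed. OsNAS1 was at 985, 31.2 and 19.1 FPKM in ZPR 1 to 3 and listed at 0 in all 3 ZPS libraries. OsNAS3 was above 0 in ZPR 2 only, at 4.46, and OsNAS2 was read only from an opposite-strand locus. Ferritin stores iron in plastids. OsFER1 was at 7.54, 9.71 and 8.38 FPKM in ZPR 1 to 3 and 271, 165 and 209 in ZPS 1 to 3 (log2 fold change -4.55, SE 0.22, adjusted p = 1.51e-05). OsFER2 was at 11.2, 14.2 and 11.0 against 251, 216 and 342 FPKM (log2 fold change -4.40, SE 0.21, adjusted p = 1.6e-05). Both ferritin genes were over 10 times higher in the shoot in every library. Metallothioneins split by gene as well, and of 12 tested 7 were higher in the root and 3 in the shoot. Besides those above, Os03g0288000 was at 276, 137 and 185 FPKM in ZPR 1 to 3 and 0.642, 0.360 and 0.428 in ZPS 1 to 3 (7.63). On the shoot side, the type 3B gene Os05g0202800 was at 0.594, 0.628 and 0.213 against 61.6, 38.2 and 54.3 FPKM (-5.73). Summed over 14 loci, metallothionein FPKM varied much within a tissue, from 4835 to 9166 in ZPR and from 630.3 to 4993 in ZPS, and the ranges overlapped.

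Aquaporins, which let water cross the plasma membrane (PIP) and the tonoplast (TIP), had members at the top of the root transcriptome. Of 14 tested, 8 were called higher in the root and 2 in the shoot (5 and 2 under all 4 scalings). OsPIP2;3 (chromosome 4, from 26099273 to 26101764) had 733, 749 and 809 FPKM in ZPR 1 to 3 and 2.23, 2.68 and 2.00 in ZPS 1 to 3 (log2 fold change 8.10, SE 0.15, adjusted p = 5.52e-06). OsTIP2;1 was at 761, 643 and 927 FPKM in ZPR 1 to 3 and 2.26, 2.72 and 2.02 in ZPS 1 to 3 (log2 fold change 8.09, SE 0.19, adjusted p = 5.52e-06). These are the highest log2 fold changes of all the listed identifiers, together with OsYSL15. OsPIP1;3 was also a root gene, at 894, 501 and 731 against 31.3, 21.5 and 0.157 FPKM (6.48), with ZPS 3 far below the other shoot libraries. So were the neighbours OsPIP2;4 (5.99) and OsPIP2;5 (4.81), whose reads may be shared between near-identical copies. OsPIP2;7 was the opposite, at 0.777, 1.68 and 0.842 FPKM in ZPR 1 to 3 and 64.7, 55.6 and 97.8 in ZPS 1 to 3 (log2 fold change -5.52, SE 0.30, adjusted p = 2.29e-05). OsPIP2;6 was higher in the shoot by less, at 47.1, 33.8 and 39.3 against 98.2, 132 and 125 FPKM (-1.55). Others were abundant in both tissues. OsPIP1;1 was at 428, 524 and 513 FPKM in ZPR 1 to 3 and 435, 528 and 329 in ZPS 1 to 3 (log2 fold change 0.20, and -0.25 with median-ratio scaling). OsPIP2;1 was at 202, 165 and 210.0 against 383, 115 and 134 FPKM (0.08, and -0.37 with that scaling). OsPIP2;2 (1.31), OsTIP1;2 (1.37) and OsTIP2;2 (1.19) were called higher in the root with FPKM as deposited but not under all 4 scalings, OsTIP2;2 also not without ZPR 1, ZPR 3 or ZPS 1 (adjusted p from 0.0615 to 0.0935), and OsTIP1;1 (1.33, adjusted p = 0.0616) was not called.

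Families that build and stiffen the cell wall had more root than shoot calls, class III peroxidases among them. These secreted haem enzymes act in lignin formation and on reactive oxygen in the wall. Of 63 tested, 36 were called higher in the root (57.1%) and 6 in the shoot, 35 and 6 under all 4 scalings, and the median log2 fold change was 2.42 against 0.42 over all tested loci. Os05g0135400 was at 124, 90.4 and 135 FPKM in ZPR 1 to 3 and 0.813, 0.627 and 0.773 in ZPS 1 to 3 (log2 fold change 6.55, SE 0.19, adjusted p = 5.84e-06). Os07g0104500 was at 84.0, 97.5 and 433 against 0.709, 1.03 and 1.22 FPKM (6.70). Os03g0339300 was the shoot counterpart, at 0.0961, 0.356 and 0.596 FPKM in ZPR 1 to 3 and 53.8, 73.4 and 68.4 in ZPS 1 to 3 (log2 fold change -6.30, SE 0.26, adjusted p = 1.08e-05). Laccases, copper oxidases of lignin, were divided in the same way, 8 of 14 tested being higher in the root and 3 in the shoot. The laccase-25 gene Os12g0259800 (chromosome 12, from 9073742 to 9077143) had 62.7, 65.5 and 75.1 FPKM in ZPR 1 to 3 and 0.298, 0.252 and 0.205 in ZPS 1 to 3 (log2 fold change 6.50, SE 0.15, adjusted p = 5.52e-06). The laccase-20 gene Os11g0641800 was at 0.150, 0.211 and 0.139 FPKM in ZPR 1 to 3 and 18.4, 22.1 and 24.3 in ZPS 1 to 3 (log2 fold change -5.04, SE 0.18, adjusted p = 8.29e-06). Root and shoot libraries did not overlap for either gene. Laccase-8 (Os01g0850800) was a further root gene at 42.6, 54.0 and 79.2 against 0.273, 0.143 and 0.207 FPKM. Germin-like proteins were called in 6 of 12 tested loci for the root and 1 for the shoot, with Os08g0190100 at 8.34, 176 and 171 in ZPR, where ZPR 1 was low. That list was matched by words of the description and does not hold Os01g0284500, which is described as nectarin. Plastocyanin-like proteins, a family of blue copper proteins of the cell surface, were called in 13 and 3 of 28.

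Wall-loosening proteins had calls on both sides. Of 32 tested expansins, 17 were called higher in the root (53.1%) and 5 in the shoot (15.6%), 13 and 5 under all 4 scalings. Of all tested loci these shares were 23.9% and 15.2%. The alpha-expansin gene Os05g0276500 was at 19.4, 13.9 and 20.2 against 0.120, 0.0881 and 0.116 FPKM, and Os05g0277000, also described as EXPA3, at 14.3, 21.4 and 20.9 against 0.116, 0.0548 and 0.115 FPKM. The beta-expansin gene Os10g0555600 was at 139, 194.89 and 183 FPKM in ZPR 1 to 3 and 15.0, 9.78 and 4.13 in ZPS 1 to 3 (4.24). Its neighbour Os10g0555900 was called higher in the shoot (-1.39), though its libraries overlapped and the call was lost without ZPR 2, ZPR 3, ZPS 2 or ZPS 3 (adjusted p from 0.0879 to 0.0979). Xyloglucan endotransglucosylase/hydrolases, which join and trim wall xyloglucan, had 5 root and 4 shoot calls of 15 tested, a balance that turned to 4 and 5 with median-ratio scaling. A neighbouring pair on chromosome 6 went opposite ways. Os06g0696600 was at 29.1, 42.1 and 46.3 against 7.29, 7.14 and 6.46 FPKM (2.38) and Os06g0697000 at 2.78, 3.67 and 2.99 against 75.6, 90.8 and 80.6 FPKM (-4.51). The root gene with the largest log2 fold change of that family was Os02g0280200, at 37.4, 43.5 and 42.1 FPKM in ZPR 1 to 3 and 0.0882, 0.324 and 0.255 in ZPS 1 to 3 (log2 fold change 5.86, SE 0.19, adjusted p = 6.72e-06).

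Families linked to barriers to water and solutes had calls on both sides. OsCASP1, which places the Casparian strip of the endodermis, was at 61.2, 42.5 and 80.5 FPKM in ZPR 1 to 3 and 0.178, 0.294 and 0.273 in ZPS 1 to 3 (log2 fold change 6.33, SE 0.25, adjusted p = 9.95e-06), although its locus is described as a non-coding transcript in the deposited table. Of 23 tested loci described as of the Casparian strip membrane protein family, 7 were called higher in the root (30.4%) and 3 in the shoot (13.0%). These shares were near the 23.9% and 15.2% of all tested loci. The median log2 fold change of the family was 0.28, under that of all loci. Os07g0442900 was at 21.2, 56.3 and 57.3 against 0.239, 0.0704 and 0.113 FPKM (6.02). Os06g0656300, a shoot member, was at 1.31, 2.01 and 0.630 against 8.76, 23.6 and 23.4 FPKM (-3.34). Lipid transfer proteins, many of which act in the cuticle of aerial surfaces, went the other way from the wall enzymes, with 14 of 32 tested called higher in the shoot (43.8%) and 7 in the root. Its largest shoot calls included a run of loci on chromosome 12. Os12g0115100, annotated as lipid transfer protein 1, was at 1.19, 0.518 and 1.24 FPKM in ZPR 1 to 3 and 276, 93.0 and 114 in ZPS 1 to 3 (log2 fold change -6.64, SE 0.44, adjusted p = 4.84e-05). Os12g0115000 was at 0.903, 0.880 and 0.404 against 295, 215 and 80.018 FPKM (-7.16). Os12g0115500 was at 0.330, 1.1012 and 0.706 against 172, 121 and 107 FPKM (-6.81). Os11g0115350, a similar gene on chromosome 11, had a log2 fold change of -7.55. These copies are close relatives, and alignment that allowed several positions per read can spread reads among them. On the root side of the family, Os07g0174400 was at 46.9, 26.4 and 33.8 FPKM in ZPR 1 to 3 and 1.05, 0.956 and 1.34 in ZPS 1 to 3 (4.45).

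**Figure D3:**
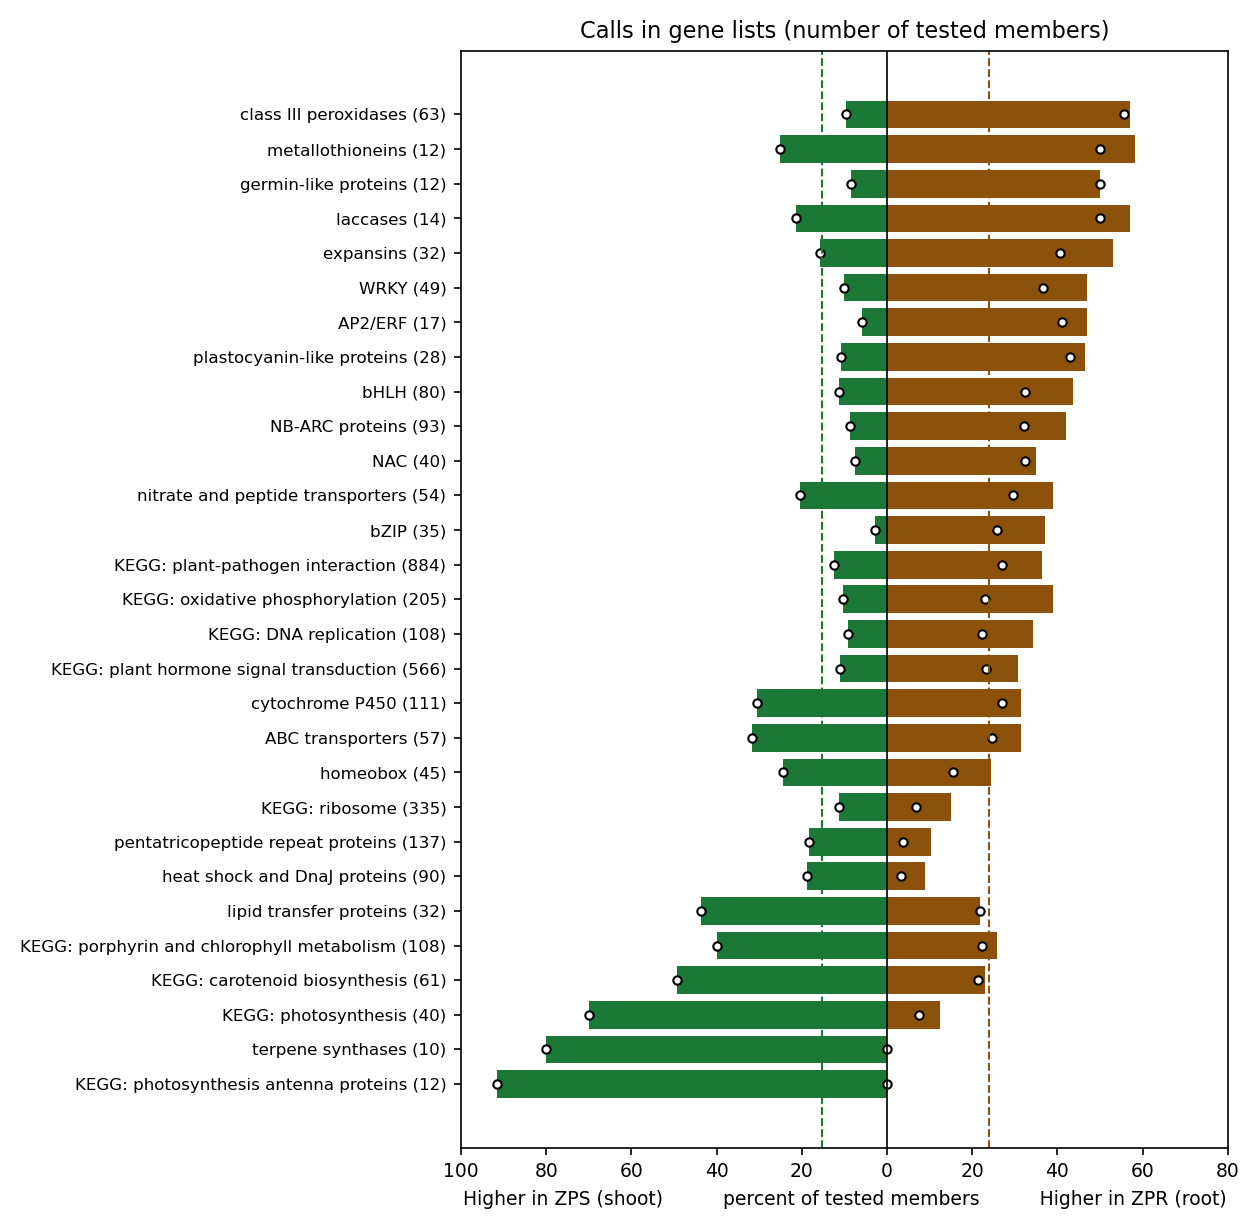
Percent of the tested members of 29 gene lists called higher in the root (brown, to the right) and in the shoot (green, to the left), with the number tested in brackets, circles at the percent called under all 4 scalings, and dashed lines at the percent of all tested loci called (23.9 and 15.2). Class III peroxidases reach 57.1% on the root side, and antenna proteins and terpene synthases have calls on the shoot side only.

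Specialised metabolism was marked in the shoot by terpene synthases, enzymes that make volatile and defensive terpenoids. Of 10 tested, 8 were called higher in the shoot and 0 in the root. Os08g0139700, annotated as terpene synthase 6, was at 3.99, 11.0 and 10.7 FPKM in ZPR 1 to 3 and 1007, 828 and 738 in ZPS 1 to 3 (log2 fold change -6.68, SE 0.39, adjusted p = 2.95e-05), so that a single gene held most of the family sum of 989 ± 158 FPKM in the shoot. Os08g0167800, annotated as a sesquiterpene synthase, was at 0.636, 0.829 and 0.783 against 79.5, 67.9 and 47.7 FPKM (-5.69). In diterpenoid synthesis, OsCPS2 was a shoot gene at low level, with 0.0964, 0.0525 and 0.0602 FPKM in ZPR 1 to 3 and 4.23, 3.87 and 3.49 in ZPS 1 to 3 (log2 fold change -2.94, SE 0.17, adjusted p = 2.81e-05). OsCPS4, of the momilactone branch, was a root gene, with 4.61, 6.77 and 10.8 FPKM in ZPR 1 to 3 and 0.682, 0.625 and 0.867 in ZPS 1 to 3 (log2 fold change 2.62, SE 0.31, adjusted p = 0.000619). Among strigolactone genes D17 was called higher in the shoot (-1.27), while D27 (0.39, adjusted p = 0.21), D10 (0.86, 0.00265) and Os01g0700900, of the MAX1 group (0.75, 0.0424) did not pass both thresholds.

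Among large families of oxidation and export, cytochrome P450, ABC and MATE genes had nearly equal root and shoot counts, with different members on each side. Of all tested loci, 23.9% were called higher in the root and 15.2% in the shoot. The shoot shares of these 3 families thus stood further above that of all tested loci than their root shares did. Cytochrome P450 genes had 35 root and 34 shoot calls of 111 tested (31.5% and 30.6%). These turned to more shoot than root calls under median-ratio scaling (30 and 37). Os03g0658800 was at 0.763, 1.61 and 1.48 FPKM in ZPR 1 to 3 and 96.6, 169 and 161 in ZPS 1 to 3 (log2 fold change -6.31, SE 0.30, adjusted p = 1.49e-05). Os10g0524700 (4.60) and Os10g0525000 (-5.45), which lie close to each other, were called in opposite directions. ABC transporters had 18 and 18 calls of 57 (31.6% each), and 14 and 18 under all 4 scalings. Os08g0398300 was at 81.9, 103 and 109 FPKM in ZPR 1 to 3 and 0.820, 0.758 and 0.743 in ZPS 1 to 3 (log2 fold change 6.26, SE 0.16, adjusted p = 5.52e-06). Os05g0222200 was at 0.158, 0.283 and 0.329 FPKM in ZPR 1 to 3 and 24.1, 32.9 and 38.0 in ZPS 1 to 3 (log2 fold change -5.39, SE 0.22, adjusted p = 1.07e-05). Within this family, then, members were far apart in opposite directions. MATE efflux proteins had 9 and 9 calls of 25 (36% each, and 5 and 9 under all 4 scalings). UDP-glucosyltransferases had 4 and 7 of 30 (13.3% and 23.3%), and 4 and 11 with each of the 3 other scalings. Glutathione S-transferases had 7 and 4 of 22 (31.8% and 18.2%, and 6 and 4 under all 4 scalings).

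Genes of sugar metabolism and fermentation were called on both sides, 4 of 10 tested for the root and 5 for the shoot. Sucrose phosphate synthase SPS1, which makes sucrose in leaves, was at 1.41, 1.60 and 1.65 FPKM in ZPR 1 to 3 and 71.2, 49.1 and 45.7 in ZPS 1 to 3 (log2 fold change -4.74, SE 0.20, adjusted p = 1.14e-05). OsSUT1, the sucrose transporter of the phloem, was at 1.39, 1.03 and 1.51 against 20.8, 35.8 and 26.2 FPKM (-3.93). SUS2, a sucrose synthase that splits sucrose for use, was at 203, 327 and 259 FPKM in ZPR 1 to 3 and 27.042, 45.9 and 46.7 in ZPS 1 to 3 (log2 fold change 2.72, SE 0.29, adjusted p = 0.000352). SUS1 was abundant in both tissues, at 678, 869.7 and 803 against 290.4, 619 and 639 FPKM (0.68, adjusted p = 0.172). Both sucrose synthase loci carry a second gene name. Leaf starch genes were shoot genes, with GBSSII at 12.6, 14.9 and 10.6 FPKM in ZPR 1 to 3 and 551, 327 and 319 in ZPS 1 to 3 (log2 fold change -4.89, SE 0.26, adjusted p = 2.25e-05), and AGPL1 was called likewise (-2.15). Alcohol dehydrogenase, which regenerates NAD in fermentation, is encoded by neighbouring genes. ADH2 (chromosome 11, from 5745005 to 5748092) had 164, 186 and 209 FPKM in ZPR 1 to 3 and 0.766, 0.919 and 1.09 in ZPS 1 to 3 (log2 fold change 7.03, SE 0.16, adjusted p = 5.52e-06). ADH1 was at 11.8, 14.9 and 10.6 FPKM in ZPR 1 to 3 and 32.6, 58.7 and 46.6 in ZPS 1 to 3 (log2 fold change -1.82, SE 0.25, adjusted p = 0.00115). The pair was called in opposite directions, and no root library overlapped a shoot library for either. OsHB1, a non-symbiotic haemoglobin, was at 318, 194 and 359 FPKM in ZPR 1 to 3 and 1.64, 2.76 and 1.53 in ZPS 1 to 3 (log2 fold change 6.86, SE 0.29, adjusted p = 1.19e-05). PDC1, pyruvate decarboxylase, was at 0.530, 0.644 and 1.99 against 0.0401, 0.0882 and 0.0848 FPKM (1.33), and its call was lost without ZPR 3 (log2 fold change 0.93) or ZPS 1 (adjusted p = 0.0505).

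**Figure D4:**
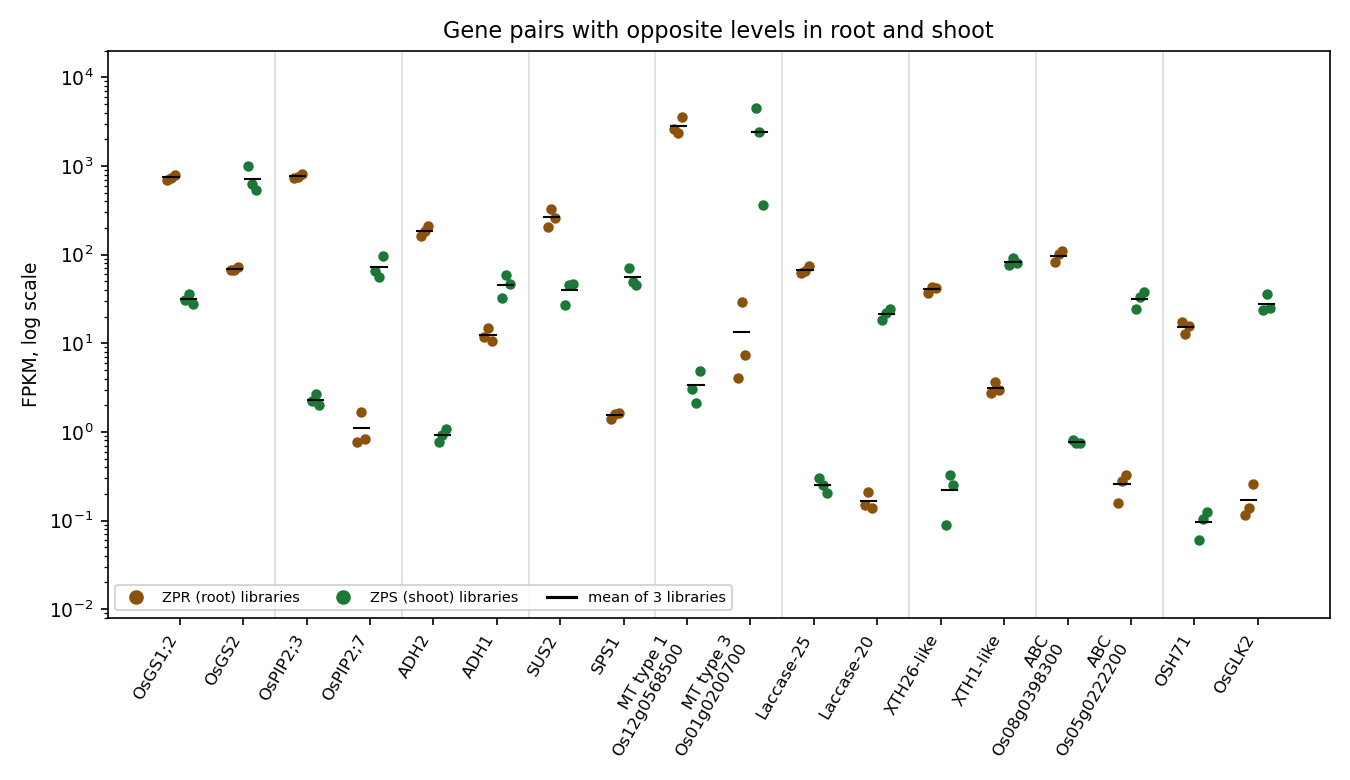
FPKM (vertical, log scale) of 9 pairs of loci in each ZPR library (brown) and ZPS library (green), with bars at the mean of 3. In each pair the first locus is higher in every root library and the second in every shoot library, from OsGS1;2 and OsGS2 to the metallothioneins (MT), where the type 3 gene ranges from 362 to 4535 in ZPS.

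Transcription factor families differed in how far their counts lay from those of all tested loci, of which 23.9% were called higher in the root and 15.2% in the shoot (15.5% and 15.2% under all 4 scalings). WRKY factors, many of which act in defence, had 23 root and 5 shoot calls of 49 tested (46.9% and 10.2%, and 18 and 5 under all 4 scalings). Os01g0185900 was at 66.3, 16.6 and 26.1 FPKM in ZPR 1 to 3 and 0.235, 0.162 and 0.120 in ZPS 1 to 3 (log2 fold change 5.54, SE 0.48, adjusted p = 0.000152). bHLH factors had 35 and 9 of 80 (26 and 9), NAC factors 14 and 3 of 40, AP2/ERF factors 8 and 1 of 17, bZIP factors 13 and 1 of 35 (9 and 1), MYB factors 24 and 13 of 80 (19 and 13) and MADS-box factors 6 and 3 of 20 (4 and 3). The MYB shares of 30.0% and 16.3% and the MADS-box shares of 30.0% and 15.0% were near those of all tested loci. Members of 1 family stood on both sides. The bHLH gene Os01g0218100 was at 60.6, 71.5 and 66.5 against 1.03, 1.06 and 0 FPKM (5.97). Os03g0782500, a phytochrome-interacting-factor-like bHLH gene, was at 1.58, 1.06 and 0.956 against 117, 51.5 and 54.2 FPKM (-5.37). The MYB genes Os09g0431300 (5.58) and Os11g0558200 (-4.01) were called in opposite directions. Os01g0859500, a bZIP gene, was at 54.8, 38.9 and 38.7 FPKM in ZPR 1 to 3 and 1.01, 0.953 and 1.03 in ZPS 1 to 3 (4.88).

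Homeobox genes and other developmental regulators had members on both sides. Homeobox genes had 11 root and 11 shoot calls of 45 (24.4% each, and 7 and 11 under all 4 scalings). Of all tested loci, 23.9% were called higher in the root and 15.2% in the shoot, so the root share was near that of all loci. OSH71, a KNOX gene of the class that keeps meristem cells undetermined, was at 17.2, 12.8 and 15.5 FPKM in ZPR 1 to 3 and 0.0599, 0.104 and 0.124 in ZPS 1 to 3 (log2 fold change 4.71, SE 0.19, adjusted p = 1e-05). OSH15, of the same class, was at 1.18, 0.512 and 1.18 in ZPR 1 to 3 and listed at 0 in all 3 ZPS libraries. A homeobox gene of the shoot side belongs to the ROC or GLABRA2 group, known for the epidermis. This ROC2 gene Os04g0627000 was at 0.0510, 0.157 and 0.104 FPKM in ZPR 1 to 3 and 18.4, 15.1 and 17.5 in ZPS 1 to 3 (log2 fold change -4.86, SE 0.18, adjusted p = 8.48e-06). YABBY genes, which mark the lower side of lateral organs in Arabidopsis, were shoot genes in 2 of 2 tested loci. Os03g0650000 was at 0.0685, 0.117 and 0.306 FPKM in ZPR 1 to 3 and 11.7, 28.4 and 17.9 in ZPS 1 to 3 (log2 fold change -4.83, SE 0.34, adjusted p = 6.5e-05), and Os12g0621100 had a log2 fold change of -3.80. DL, the YABBY gene of the leaf midrib, was listed at 0 in all 3 ZPR libraries and at 0.991, 2.50 and 1.35 in ZPS 1 to 3. The root regulators CRL1, CRL5, QHB and OsSHR1 were under the level tested, while OsSCR1 (0.15, -0.11 with median-ratio scaling) and OsSCR2 (1.45, adjusted p = 0.196) did not pass.

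In hormone signalling, 174 of the 566 tested loci of the KEGG pathway were called higher in the root (30.7%) and 63 in the shoot (11.1%), 132 and 63 under all 4 scalings. Auxin response factors and Aux/IAA repressors had 12 and 5 calls of 43, which turned to 8 and 10 with median-ratio scaling. The Aux/IAA gene Os03g0633500 was at 21.7, 19.4 and 20.3 FPKM in ZPR 1 to 3 and 0.198, 0.236 and 0.389 in ZPS 1 to 3 (log2 fold change 4.76, SE 0.18, adjusted p = 8.48e-06). The auxin response factor 24 gene Os12g0479400, a shoot member, was at 6.25, 8.64 and 6.96 against 24.9, 37.2 and 37.3 FPKM (-2.099). Receptor-like kinases had 18 root and 11 shoot calls of 65 (27.7% and 16.9%, near the 23.9% and 15.2% of all tested loci), turning to 14 and 17 with that scaling. Os09g0293500, annotated as a brassinosteroid receptor kinase, was at 11.6, 16.8 and 17.8 FPKM in ZPR 1 to 3 and 0.159, 0.417 and 0.254 in ZPS 1 to 3 (4.35). Os02g0777400, like the Arabidopsis stomatal and organ growth receptor ERECTA, was at 0.00498, 0.148 and 0.182 against 4.11, 11.1 and 9.44 FPKM (-3.74).

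Among families of defence, NB-ARC genes, the type of most plant disease resistance proteins, had 39 root calls (41.9%, beside 23.9% of all tested loci) and 8 shoot calls (8.60%, beside 15.2%) of 93 tested (30 and 8 under all 4 scalings), with a median log2 fold change of 0.85. Os01g0521600 was at 12.7, 13.5 and 11.4 FPKM in ZPR 1 to 3 and 0.0350, 0 and 0.0433 in ZPS 1 to 3 (log2 fold change 4.63, SE 0.17, adjusted p = 8.6e-06). Os11g0686900 was at 8.74, 12.2 and 9.07 against 0.0190, 0.0692 and 0.0629 FPKM (4.24). Root NB-ARC transcripts were nonetheless few, the family summing to 0.103% of FPKM in ZPR and 0.0503% in ZPS. Shoot members included a pair of neighbours on chromosome 11, Os11g0606400 (-3.25) and Os11g0606500 (-1.88). In the KEGG pathway of plant-pathogen interaction 322 and 109 of 884 were called (36.4% and 12.3%, and 239 and 109 under all 4 scalings). The thionin-like locus of Os07g0429600, which carries further gene names, was among the most abundant in the root, at 1253, 414 and 915 FPKM in ZPR 1 to 3 and 2.31, 2.26 and 2.46 in ZPS 1 to 3 (log2 fold change 8.10, SE 0.39, adjusted p = 1.6e-05), where ZPR 2 was below the others. Chitinases had 5 and 2 calls of 12 (3 and 2 under all 4 scalings), with Os05g0399300 at 33.0, 14.1 and 24.6 against 0.670, 0.218 and 0.0784 FPKM (4.87).

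For genes of growth and basic cell function, the direction of several lists rested on the scaling. Cyclins had 14 root and 2 shoot calls of 53 (9 and 2 under all 4 scalings). Loci described as histones or histone-fold proteins had 8 and 1 of 30 (4 and 1). Their root shares of 26.4% and 26.7% were near the 23.9% of all tested loci, and their shoot shares were 3.77% and 3.33% beside 15.2%. DNA replication had 37 and 10 of 108 (34.3% and 9.26%, and 24 and 10). The cyclin-B1-1 gene Os01g0805600, of dividing cells, was at 23.9, 19.9 and 18.1 FPKM in ZPR 1 to 3 and 2.85, 6.30 and 7.75 in ZPS 1 to 3 (log2 fold change 1.87, SE 0.35, adjusted p = 0.00419). Oxidative phosphorylation had 80 and 21 calls of 205 (47 and 21). Ribosome loci had 50 and 38 calls of 335, turning to 23 and 41 with median-ratio scaling, spliceosome loci 72 and 37 of 401, turning to 36 and 48, and proteasome loci 16 and 5 of 85, turning to 0 and 5. Of the ribosome loci, 23 root and 38 shoot calls were made under all 4 scalings. The list was taken by pathway and was not split into ribosomes of the cytosol and of organelles. Which of these the shoot calls belong to was not tested. Some ribosomal protein genes were among the shoot calls of smallest p. Os03g0815400, described as ribosomal protein L17-like, was at 4.61, 4.92 and 4.86 FPKM in ZPR 1 to 3 and 139, 137 and 141 in ZPS 1 to 3 (log2 fold change -4.72, SE 0.11, adjusted p = 5.52e-06). Os03g0704000, described as similar to 30S ribosomal protein S13, was at 3.07, 3.41 and 3.63 against 98.2, 101 and 105 FPKM (-4.72). Pentatricopeptide repeat proteins, which process organelle RNA, had 14 root and 25 shoot calls of 137 (5 and 25), and heat shock and DnaJ proteins 8 and 17 of 90 (3 and 17). The DnaJ shoot calls of largest fold included loci described by a cysteine-rich domain, such as Os03g0244000 at 2.04, 2.43 and 3.16 against 166, 99.9 and 89.3 FPKM (-5.25).

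The differences with the smallest p were those with little spread in both tissues. In the root these were OsPIP2;3, OsLsi2, OsLsi1, ADH2, OsTIP2;1, laccase-25 and loci of unknown function. Os09g0564200 (chromosome 9, from 22427231 to 22433832), a hypothetical conserved gene, was at 261, 234 and 337 FPKM in ZPR 1 to 3 and 0.796, 0.708 and 0.674 in ZPS 1 to 3 (log2 fold change 7.81, SE 0.17, adjusted p = 5.52e-06). Os12g0282000, a conserved hypothetical protein, was at 91.1, 71.1 and 88.9 against 0.141, 0.131 and 0.0764 FPKM (7.09). An opposite-strand locus at Os02g0512000 was at 275, 244 and 286 against 0.946, 1.3036 and 1.02 FPKM (7.40). In the shoot they included Os10g0430200, like sinapyl alcohol dehydrogenase, at 0.566, 0.723 and 0.661 FPKM in ZPR 1 to 3 and 83.7, 68.2 and 70.7 in ZPS 1 to 3 (log2 fold change -6.02, SE 0.15, adjusted p = 5.52e-06). Os02g0729400, like an extracellular calcium-sensing receptor, was at 4.67, 4.98 and 6.10 against 247, 242 and 235 FPKM (-5.40). The aldehyde dehydrogenase gene Os02g0647900 was at 0.527, 0.819 and 0.771 against 70.3, 76.0 and 74.5 FPKM (-5.95). Loci were named here only if their root and shoot libraries did not overlap, so that separation is part of the choice and not a further result.

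Some loci were listed at 0 in 1 tissue. Among the calls, 137 root loci were at 0 in all 3 ZPS libraries and 52 shoot loci at 0 in all 3 ZPR libraries, of which 82 and 27 have transcripts of 2 or more exons. Os04g0644400, a proline-rich protein gene (chromosome 4, from 32792756 to 32794219), was listed at 0 in ZPR and at 121, 291 and 163 FPKM in ZPS 1 to 3. Os05g0227600, also annotated as proline-rich, was at 433, 21.7 and 20.6, with ZPS 1 far above the others. On the root side Os10g0191300, like the pathogenesis-related protein PR-1a, was at 77.4, 13.3 and 7.64 in ZPR 1 to 3 and 0 in ZPS. The expansin-A11 gene Os01g0274500 was at 17.952, 4.30 and 9.75 in ZPR 1 to 3, and Os05g0531400, of the pollen allergen and extensin domain, at 5.38, 5.86 and 8.82, both with 0 in ZPS. These levels differed widely between libraries of the tissue in which the transcript was found, except for Os05g0531400. Os12g0548401, a proteinase inhibitor-like locus, was at 16.3, 8.04 and 0.654 in ZPR 1 to 3, and its call was lost without ZPR 2 (adjusted p = 0.0618) or ZPS 1 (0.0522).

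The root-shoot differences were looked for again in libraries grown under the other Zn supplies, which share none with ZPR and ZPS. Between ZMR and ZMS 4584 of 21065 tested loci were higher in the root (21.8%) and 3139 in the shoot (14.9%), and between ZRR and ZRS 5358 (25.8%) and 2616 (12.6%) of 20771. The resupply counts turned to 2522 and 3478 with median-ratio scaling, to 2996 and 3217 with upper-quartile scaling and to 2906 and 3310 with quantile normalization, and the root count was 3513 without ZRS 3. In ZRS 1 intronic or intergenic transcripts held 16.8% of FPKM, against 1.79% to 5.14% in the other libraries, and ZRR 3 had 3.67 reads per base for each FPKM, against 6.0 or more elsewhere. The counts were 3593 and 2527 without ZRS 1 and 4106 and 2454 without ZRR 3, and the part of these libraries in the overlaps below was not tested. Of the root calls with Zn, 3815 were made again without Zn (76.2% of the +Zn calls and 83.2% of the -Zn calls) and 3705 after resupply (74.0% and 69.1%). Of the shoot calls, 2694 were made again without Zn (84.8% and 85.8%) and 2347 after resupply (73.9% and 89.7%). All 3 supplies gave 3132 root calls and 2207 shoot calls in common, and 2 loci were called in opposite directions with and without Zn. Of the 108 called loci of the identifier lists, 99 were called in the same direction without Zn and 94 after resupply. PSAL was a listed exception without Zn, at a log2 fold change of -0.36 (adjusted p = 0.896). It was at 993, 4.44 and 4.21 FPKM in ZMS 1 to 3, where only ZMS 1 was near the ZPS level, and at 14.4, 38.6 and 18.2 in ZMR 1 to 3.

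The change of the root-shoot difference itself was tested in 1 limma fit of all 18 libraries, over 24431 loci, where both tests share the +Zn libraries. Without Zn it rose at 8 loci and fell at 8 (0.0327% each), and after resupply it rose at 5 (0.0205%) and fell at 17 (0.0696%). These counts depended on how zeros and low values were treated, with 184 and 179 loci without Zn and 182 and 229 after resupply where zeros were taken as missing, and 3 and 9 falls with a pseudocount of 0.1. Genes of zinc and iron uptake were among them. The difference at the OsZIP5 and OsZIP9 locus rose by 3.54 without Zn (SE 0.38, adjusted p = 0.00057), with ZMR 1 to 3 at 35.3, 29.1 and 24.979 FPKM and ZMS at 0.584, 0.383 and 0.485. At OsNAAT1 it changed by -4.64 (SE 0.65, adjusted p = 0.00941), with ZMR at 126, 155 and 142 and ZMS at 82.9, 67.0 and 79.9 FPKM. Its root libraries were thus lower and its shoot libraries higher than with Zn, and the tissues lay closer together. OsIRT2 reached 0.5 FPKM in the ZPR libraries only, so that its difference could only fall, and its values are given as a description. It had a change of -1.90 (adjusted p = 0.0192) without Zn and -2.05 (0.0116) after resupply, with ZMR at 0.0408, 0.0437 and 0.368 and ZRR at 0.0400, 0.179 and 0.0559. The former was lost without ZPR 3, ZPS 1, ZPS 2 or ZPS 3 (adjusted p from 0.0525 to 0.0795). OsNRAMP1 passed after resupply (-2.95, SE 0.40, adjusted p = 0.0104) and not without Zn (-2.22, adjusted p = 0.0878), with ZRR at 37.0, 30.6 and 14.3 and ZMR at 26.2, 25.3 and 19.5, and these 2 changes were not tested against each other. With single +Zn libraries left out, the loci at which the difference fell numbered 4 to 7 without Zn (4 without ZPR 3 or ZPS 3 and 5 without ZPR 1 or ZPS 2) and 10 to 22 after resupply (10 without ZPS 3 and 11 without ZPS 2).

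**Figure D5:**
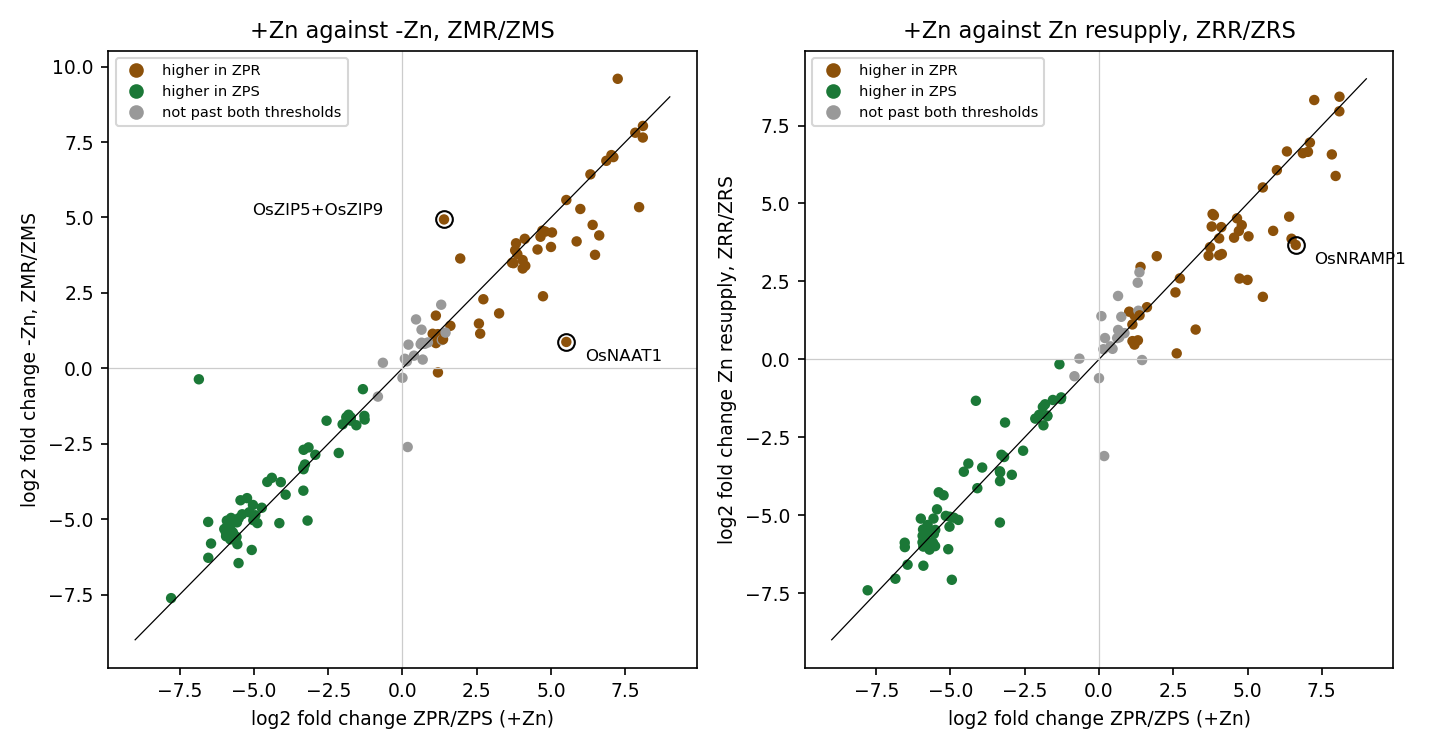
Log2 fold change of root over shoot with Zn (horizontal) against that without Zn (left) and after Zn resupply (right), vertical, for the tested loci of the identifier lists, coloured by their call with Zn, with a line of equality. Most loci lie along the line. Circles mark those whose difference changed between the supply groups: OsZIP5+OsZIP9 above the line and OsNAAT1 below it without Zn, and OsNRAMP1 below it after resupply. OsIRT2 was too low to be tested in the other supplies and is not drawn.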

How the data were processed

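Poly(A) RNA of pools of 3 seedlings was sequenced in pairs of reads. The authors checked reads with FastQC, aligned them to the IRGSP-1.0 genome with TopHat and Bowtie2, allowing several alignments per read, and computed FPKM per locus and library with Cufflinks, as deposited. Read coverage per base of each isoform was also deposited by the authors and gave the depth per FPKM. The strand used in counting and the tool that assembled the MSTRG loci are not given in the sources used here. Columns of descriptions, KEGG pathways and class codes were used as deposited.

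Loci that reached 0.5 FPKM in 3 or more of the 6 libraries entered limma 3.58.1 in R 4.3.3 (trend) on log2(FPKM + 0.5), with Benjamini-Hochberg adjustment over all tested loci. A call required a log2 fold change of 1 or more in size, with an adjusted p no higher than 0.05. An exact permutation test of 3 against 3 pools cannot go below 0.1, so none is given. The p-values rest on the spread between pools. Tables and figures were made with Python 3.11.15, pandas 2.3.3, numpy 2.4.6 and matplotlib 3.10.9. Tested on simulated data for ZPR against ZPS (20142 loci), the fit called 19 of 50 loci given a log2 change of 1.2, 24 at 1.5, 39 at 2 and 43 at 3, and 6 unchanged loci. All other simulated loci were unchanged, whereas 39.0% of the tested loci were called in the data. With so few changed loci the Benjamini-Hochberg adjustment is stricter, so these rates do not describe the real comparison.

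Gene lists came from 162 RAP identifiers in 12 lists (158 matched 151 loci), 39 lists by words of the deposited description and 20 KEGG pathways. Members and lists were chosen with earlier results of these data known. Word patterns were narrowed after a first match, since words such as glutamate had been caught by MATE. Genes were named by these rules: all members of the identifier lists, the 10 loci per tissue of smallest p whose groups do not overlap, the 10 of highest mean FPKM, up to 4 called members per direction of each description list by fold, and up to 10 loci per direction at 0 in the other tissue with 2 or more exons, by mean FPKM. Of these, the text gives a selection. Loci are named by the rice gene they carry, and coordinates are those of the deposited table, counted from 1.

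Alternatives were pseudocounts of 0.1 and 1, a filter at 1 FPKM and none, 3 other scalings, no trend, a replicate block, zeros taken as missing, a fit of all 18 libraries and leaving out each library.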

Additional observations from a re-analysis of the deposited data

Results flagged for a closer look

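A few root-shoot differences changed between the Zn supply groups beyond the spread between pools, by a test of the change itself (limma, 18 libraries, Benjamini-Hochberg over 24431 loci). Resupplied plants had 3 further days after the 2 weeks without Zn, so age at harvest may differ together with the supply. Without Zn this held for 16 loci and after resupply for 22, and both tests share the +Zn libraries. The difference at the merged locus of OsZIP5 and OsZIP9 rose by 3.54 on the log2 scale without Zn, with 1.64, 1.61 and 1.1965 FPKM in ZPR 1 to 3 and 35.3, 29.1 and 24.979 in ZMR 1 to 3, and stayed called in 16 of 16 alternatives (3.38 to 3.68). That of OsNAAT1 changed by -4.64 without Zn, also called in 16 of 16 (-4.80 to -4.52). That of OsIRT2 changed by -1.90 without Zn and by -2.05 after resupply, but this gene reached 0.5 FPKM in the ZPR libraries only, so its difference could only fall and the values are a description. After resupply the difference of OsNRAMP1 changed by -2.95, called in 16 of 16.

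Among genes outside mineral uptake, the difference of Os04g0617900, a germin-like gene, changed by -4.31 after resupply (adjusted p = 0.00279). It was at 13.3, 19.7 and 12.3 FPKM in ZPR 1 to 3, at 0.532, 0.812 and 1.04 in ZRR and at 0, 0.841 and 0.612 in ZRS, and was called in 16 of 16 alternatives. That of Os12g0282000, a conserved hypothetical gene, changed by -3.06 (adjusted p = 0.0403), with ZRR at 16.7, 11.9 and 3.83, but it was called in only 5 of 16 alternatives and was lost without any single +Zn library (adjusted p from 0.0568 to 0.143). What sets these changes was not tested.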

How the results depend on the processing

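Of 416 named loci, 365 kept their direction and their side of both thresholds under all 17 alternatives. Of the 397 that were called, 356 kept the call, 41 lost it under at least 1 alternative and 0 changed sign. The number of loci higher in the root moved from 5007 to 3263 with median-ratio scaling, and to 3723 and 3665 with upper-quartile and quantile scaling, while the shoot count went from 3178 to 3935, 3635 and 3735. It was 5567, 4166, 4561 and 4974 with a pseudocount of 0.1, a pseudocount of 1, a filter at 1 FPKM and none, against 3406, 2764, 2859 and 3226 for the shoot, and 4424 to 5131 (shoot 3044 to 3241) without single libraries. After resupply the 5358 root calls moved to 2522, 2996 and 2906 with median-ratio, upper-quartile and quantile scaling, and to between 3513 (without ZRS replicate 3) and 7678 without single libraries. Without Zn, the 8 loci whose difference rose became 184 with zeros taken as missing, and the 8 whose difference fell became 3, 14, 13 and 179 with a pseudocount of 0.1, a pseudocount of 1, quantile normalization and zeros taken as missing, and 4 to 7 without single libraries. After resupply the 5 that rose became 3 with the filter at 1 FPKM and 182 with zeros as missing, and the 17 that fell became 9 with a pseudocount of 0.1, 229 with zeros as missing and 10 to 22 without single libraries. The cause of these shifts was not tested.

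Directions changed for 5 loci that were not called. With median-ratio scaling LHCB2 went from 0.17 to -0.090, OsPIP1;1 from 0.20 to -0.25, OsPIP2;1 from 0.08 to -0.37 and OsSCR1 from 0.15 to -0.11, and with upper-quartile scaling OsPIP1;1 was at -0.088, OsPIP2;1 at -0.21 and OsSCR1 at -0.0080 (-0.12 with quantile normalization). OsNIA1 was at 9.9e-06 with a pseudocount of 0.1. Without single libraries LHCB2 ranged from -1.28 to 1.49, OsNIA1 from -0.14 to 0.22, OsPIP2;1 from -0.25 to 0.62 and OsSCR1 from -0.62 to 0.73. Of 71 lists, 12 changed their larger direction under a scaling.

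With a replicate block the counts were 5113 and 3246. Root and shoot pools share only a number. Their deviations correlated at 0.32, 0.13 and 0.08 for replicates 1 to 3, while ZPR 2 correlated better with ZPS 3 (0.17). The numbers were therefore not taken as pairs. Replicate 1 of root and shoot correlated at 0.30 without Zn and 0.34 after resupply too, so it deviated alike in both tissues under each supply. The source of that shared deviation was not tested. FPKM gives no counting interval for a single library. Of single-exon loci with a mean above 0.5 FPKM, 49.2% had a 0 beside a library of the same tissue above 1 FPKM, so a 0 is no sign of absence. Loci merged from neighbouring genes or assembled on the opposite strand cannot be given to 1 gene.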

Other observations

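Loci without a known protein were called in both directions, beside 23.9% and 15.2% of all tested loci. Of 1061 tested loci that carry no gene name, 318 were called higher in the root and 210 in the shoot, and of 550 described as non-protein-coding transcripts 87 and 108 (15.8% and 19.6%, and 55 and 108 under all 4 scalings). The deposited table gives this description also to the loci of RCA, RBCS3, OsCASP1 and OsPIP2;1, which are protein-coding genes.

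Most of the remaining lists had calls on both sides. Photosynthesis in KEGG had 5 root and 28 shoot calls of 40 tested, phenylpropanoid synthesis 102 and 64 of 278 (87 and 64 under all 4 scalings), glycolysis 64 and 32 of 179 (48 and 32), diterpenoid synthesis 18 and 10 of 42 (13 and 10) and cutin, suberin and wax synthesis 17 and 20 of 56 (9 and 20). The larger side changed under median-ratio scaling for carbon fixation (42 and 39 of 129, then 37 and 44), nitrogen metabolism (10 and 8 of 36, then 8 and 9), starch and sucrose metabolism (102 and 84 of 443, then 77 and 113), circadian rhythm (25 and 21 of 110, then 18 and 27) and glutathione metabolism (32 and 24 of 105, then 20 and 30). By description, aquaporins had 6 and 1 of 11, ZIP family proteins 4 and 2 of 10, GRAS factors 3 and 1 of 12, dirigent proteins 1 and 0 of 2 and TCP factors 0 and 1 of 1. Of the identifier lists, chelator and ferritin genes had 5 and 2 of 7, organ identity regulators 2 and 3 of 7, and strigolactone and diterpenoid genes 1 and 2 of 6.

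Os08g0331000, a conserved hypothetical gene, was called higher in the root with Zn, at 0.656, 2.53 and 4.50 against 0.0761, 0.116 and 0 FPKM, and higher in the shoot without Zn, at 0.277, 0.535 and 0.145 against 1.82, 3.13 and 4.42. The pentatricopeptide repeat gene Os09g0542800 did the same at low level, at 1.61, 1.43 and 1.86 against 0.753, 0.556 and 0.0456 with Zn and 0.557, 0.0371 and 0.0458 against 0.595, 1.52 and 1.43 without, and its +Zn call was lost without ZPR 3 (adjusted p = 0.0591) or ZPS 3 (log2 fold change 0.88). Neither was among the 16 loci whose difference changed by the test of the change itself. Os02g0663100, a GRAS factor gene, was among those 16. It was listed at 0 in all ZPR, ZPS, ZMR, ZRR and ZRS libraries and at 17.2, 25.8 and 23.7 FPKM in ZMS 1 to 3, so it entered the test through ZMS alone and its values are a description. Os03g0234100, annotated as non-symbiotic haemoglobin 4, was another, at 4.89, 6.07 and 4.45 in ZPR 1 to 3 and 0.309, 0.277 and 0.456 in ZMR 1 to 3, with ZPS 1 to 3 at 0, 0 and 0.0434 and ZMS at 0 in all 3 libraries. Of the groups contrasted, only ZPR reached 0.5 FPKM at this locus. Its difference could therefore only fall, and its values are a description.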
